A study of Mus musculus with 16 samples.

Results

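The genes described here, in mouse cortex and cerebellum, are 10 galactosyltransferase genes: the 4 β1,3-galactosyltransferase genes B3galt1, B3galt2, B3galt5 and B3galt6 and the 6 β1,4-galactosyltransferase genes B4galt1 to B4galt6. They were chosen by name out of 37583 genes in the count files, of which 27196 had a count, and all 10 passed the filter on low counts in every comparison. RNA was taken from the cortex and the cerebellum of 4 wild-type C57BL/6J mice and of 4 C57BL/6J mice with the A391T (A393T) mutation of Slc39a8, a gene for a metal ion transporter of the cell membrane. One library was made for each region of each mouse, which gave 16 libraries in 4 groups of 4. The wild-type mice were males, 12 weeks old. The age and sex of the A391T mice are not given in the sources used here, and no other allele or treatment is named for any group. The labels do not give the zygosity of the mutation. Each library is bulk tissue of several cell types, so fewer cells of a type and less RNA per cell cannot be told apart.

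Galactosyltransferases work in the Golgi, where they move galactose from UDP-galactose onto a growing sugar chain. The β1,4 enzymes build N-acetyllactosamine on glycoproteins or lactosylceramide on glycolipids, and the latter is the precursor of the gangliosides, of which neurons are rich. The β1,3 enzymes of this set make type 1 chains on N-acetylglucosamine, except B3galt6, which adds a galactose to the linker that joins glycosaminoglycans to proteoglycans.

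The β1,4 genes share a coding stretch for residues that bind the acceptor sugar, and it is shown because it lets a reader see how alike the members are and where a read could still tell them apart. Capitals mark the bases that were not the same in all 6 genes, and 21 of 27 bases were. Each sequence is that of the coding strand in NCBIM37 (mm9), lies within 1 exon, and differs from the 5 others. The stretch of B4galt6 was counted in this comparison and is not printed.
B4galt1, chr4:40756723-40756749, minus strand: tggggTtggggAggAgaAgaTgaCgac
B4galt2, chr4:117549713-117549739, minus strand: tggggCtggggTggCgaGgaTgaTgac
B4galt3, chr1:173204482-173204508, plus strand: tggggCtggggTggCgaGgaTgaCgac
B4galt4, chr16:38763267-38763293, plus strand: tggggAtggggAggAgaAgaCgaTgac
B4galt5, chr2:167130507-167130533, minus strand: tggggCtggggCggAgaAgaTgaCgac
A shorter stretch is common to 3 of the 4 β1,3 genes, with 12 of 18 bases identical and capitals for the others. B3galt6, the linker enzyme, does not hold it.
B3galt1, chr2:67956789-67956806, plus strand: gaAgatgtGtACgtGggA
B3galt2, chr1:145494275-145494292, plus strand: gaAgatgtAtATgtAggG
B3galt5, chr16:96537493-96537510, plus strand: gaGgatgtGtTTgtTggG
Over whole coding sequences, the 15 pairs of β1,4 genes were from 47.2% to 68.6% identical, with B4galt5 and B4galt6 the closest pair, and the 6 pairs of β1,3 genes from 35.5% to 50.2%. By the same measure, the 24 pairs of a β1,4 with a β1,3 gene were from 37.9% to 44.7% identical, a range within that of the β1,3 pairs. The longest run of identical bases in any of the 45 pairs, searched over whole transcripts and not the coding part alone, was 35 bases. It was in B4galt2 and B4galt3 and under the read length of 50 bases.

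The libraries held from 20813432 to 30497206 counts on genes, and each of the 10 genes was counted at least 136 times in each library and up to 5308 times. The region labels held in the marker genes: 6 cortex neuron genes summed to 431 to 480.2 TPM (counts per base of gene, brought to one common sum per library) in wild-type cortex and 34.1 to 38.2 TPM in wild-type cerebellum, and 6 granule cell genes to 25.9 to 45 TPM and 2901 to 3092 TPM. The ranges of 5 other lists did not overlap between the regions in wild-type mice either. The summed microglia genes had 428 to 469.7 TPM in wild-type cortex and 148 to 158 TPM in wild-type cerebellum, the astrocyte genes 847 to 924 and 1477 to 1635 TPM, and the Purkinje cell genes 415 to 548 and 4692 to 5167 TPM, for 5 genes each. The 6 striatum genes had 594 to 812 and 251 to 288 TPM and the 5 hippocampus genes 81.5 to 90.8 and 63.1 to 68.9 TPM, while the oligodendrocyte, endothelium, choroid plexus and blood genes overlapped between the regions. The part of cell makeup in the region differences was not tested. None of these genes was at 0 in any group. The summed 6 choroid plexus genes ran from 41.6 to 8071 TPM in wild-type cerebellum and from 42.1 to 5809 TPM in A391T cerebellum, against at most 46.7 TPM in cortex, and the 6 striatum genes from 265 to 907 TPM in A391T cortex. Libraries are named as in the labels, with CTX for cortex, CBLM for cerebellum and the number of the mouse. The A391T cerebellum library CBLM445 stood apart: its chi-square over genes, divided by the degrees of freedom, was 62.3 to 74.5 against the other 3 of its group, which gave 7.23 to 8.13 among themselves. Its granule cell genes summed to 2356 TPM against 2753 to 3101 TPM in those 3, and its 5 blood genes to 593 TPM against 360.0 to 505 TPM. Its 4 endothelium genes summed to 292 TPM against 205 to 222 TPM. It had 21.4% of reads on no single gene, against 23.9% to 24.5% in those 3. The part of these differences in the results was not tested. Values are given with and without CBLM445 where it changed a call or the side of an adjusted p of 0.05. Of the wild-type cortex libraries CTX480 was the farthest from the other 3, with 15.1 to 34.4 by the same measure against 5.1 to 12 among those, and with the most reads on no single gene (27.1%). It had the lowest cortex values of its group for B4galt2, B4galt3, B4galt5, B4galt6, B3galt1 and B3galt5 and the highest for B4galt1 and B3galt6, and without it B4galt2 and B3galt2 were still called (-1.67 and -1.60). An RPKM table was deposited too, and 8 of its 16 columns, from 4 mice, carry another name than the matching count file, with the other genotype. What the count files call CTX447, CBLM447, CTX448 and CBLM448 (wild type) is CTX461, CBLM461, CTX462 and CBLM462 (A391T) in the table, and the reverse. The files do not show which naming is right. The count files' naming was used, and each comparison was repeated with that of the table.

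B4galt6, which with B4galt5 makes lactosylceramide, had the highest level of the 10 genes in all 4 groups. It had 111, 114, 109 and 102 TPM in CTX447, CTX448, CTX479 and CTX480 of the wild-type mice, and 100.1, 102, 115 and 103 TPM in CBLM447, CBLM448, CBLM479 and CBLM480. The regions overlapped, with a mean of 109 ± 5.31 TPM in the first and 105 ± 6.92 TPM in the second (SD, n = 4). B4galt1, the best known N-acetyllactosamine synthase and, with alpha-lactalbumin, the enzyme of lactose synthesis in the mammary gland, was lowest in all 4 groups, at 6.34 ± 0.542 TPM in wild-type cortex and 6 ± 0.663 TPM in wild-type cerebellum (SD, n = 4). B4galt6 exceeded 91.8% of the genes with a count in wild-type cortex, and B4galt1 52.6%.

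The order between these extremes differed by region. In wild-type cortex B4galt6 was followed by B4galt2 at 87.9 ± 10 TPM, B4galt5 at 52.3 ± 3.99, B3galt2 at 36.1 ± 1.63, B3galt1 at 32.8 ± 2.67, B4galt3 at 32.6 ± 2.19, B3galt5 at 27.7 ± 4.82, B4galt4 at 24.1 ± 1.58 and B3galt6 at 21.2 ± 1.83 TPM (SD, n = 4). The 3 highest were apart from their next neighbour in every library value, while B3galt2 through B4galt4 each overlapped the next. In wild-type cerebellum B4galt6 was followed by B4galt5 at 69 ± 6.04, B4galt3 at 38 ± 2.53, B3galt5 at 36.8 ± 1.65, B4galt2 at 32.1 ± 0.896, B4galt4 at 29.8 ± 1.97, B3galt6 at 21.4 ± 1.01, B3galt1 at 19 ± 0.77 and B3galt2 at 13.2 ± 0.525 TPM (SD, n = 4). There B4galt3 overlapped B3galt5, B4galt2 overlapped B4galt4, and the other neighbours were apart. B4galt2 thus had rank 2 in cortex and 5 in cerebellum, and B3galt2 rank 4 and 9. The ranks in the A391T mice were 2 and 4 for B4galt2 and 5 and 9 for B3galt2. The place of B4galt3 rests on its gene length: the RPKM table gives 3370 bases and the annotated exons cover 5467, with which B4galt3 had 20.1 TPM in wild-type cortex and 23.4 TPM in wild-type cerebellum, below B4galt2 (31.8 TPM) in the latter.

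**Figure D1:**
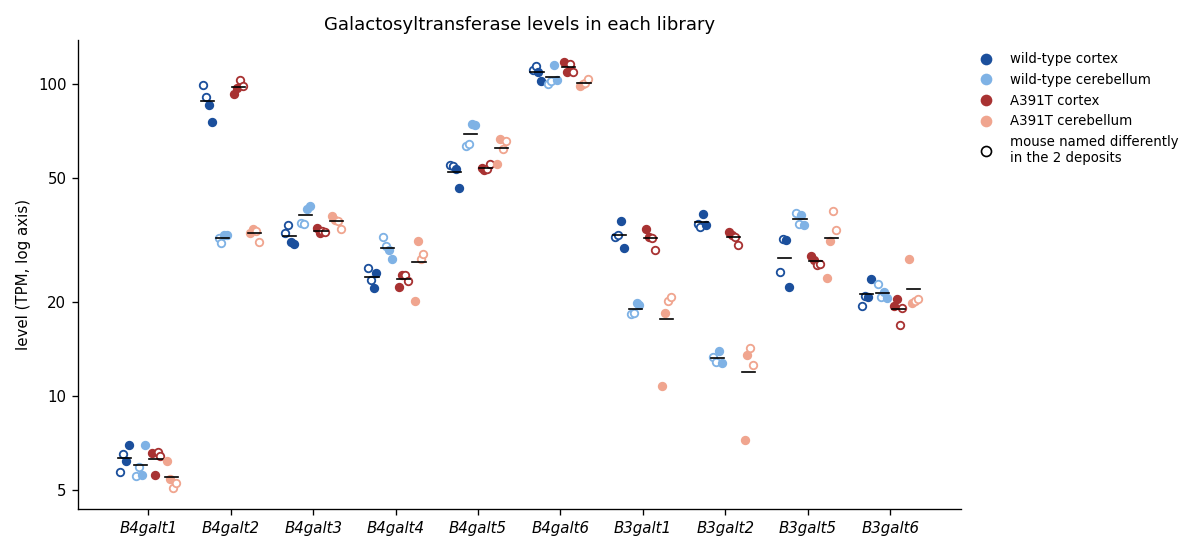
Levels of the 10 genes in each of the 16 libraries, in TPM on a log axis, with 1 point per library, a black line at each group's mean and open points for the 4 mice that are named differently in the count files and the RPKM table. B4galt2, B3galt1 and B3galt2 lie lower in cerebellum than in cortex in both genotypes with no overlap, and CBLM445 gives the lowest cerebellum points of B3galt1 (10.8 TPM) and B3galt2 (7.24 TPM).

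To ask how the 2 regions differ, cerebellum was compared with cortex in the 4 wild-type mice. Of the 10 genes, 2 passed both criteria, an adjusted p under 0.05 and at least a 2-fold change, and both were lower in cerebellum: B4galt2 and B3galt2. Of all 16040 genes tested, 24.7% passed both criteria, 14.2% lower and 10.5% higher in cerebellum. An adjusted p under 0.05 alone was reached by 6 of the 10 genes, 4 lower and 2 higher, against 67.8% of all genes, 33.1% lower and 34.7% higher, and the ranges of 7 did not overlap, against 65.9%. The median log2 fold change was -0.17 over the 10 genes and 0.02 over all genes tested, and the median size 0.24 and 0.46. Fold changes here are from edgeR's quasi-likelihood test after TMM scaling, with p-values adjusted over every gene tested by Benjamini-Hochberg, as log2 of cerebellum over cortex.

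B4galt2, which adds galactose to N-acetylglucosamine on glycoproteins, had 99.4, 90.8, 85.8 and 75.4 TPM in CTX447, CTX448, CTX479 and CTX480 of the wild-type mice, and 32.1, 30.9, 32.8 and 32.8 TPM in CBLM447, CBLM448, CBLM479 and CBLM480. The lowest cortex library lay above the highest cerebellum library by more than the whole spread of either region. The level in cerebellum was 3.04-fold lower, a log2 fold change of -1.60 (SE 0.08, adjusted p = 1.5e-08). The A391T values were 92.8, 96.8, 103 and 98.7 TPM in CTX445, CTX446, CTX461 and CTX462 and 33.2, 34.4, 33.8 and 31.2 TPM in CBLM445, CBLM446, CBLM461 and CBLM462, again with no overlap (log2 fold change -1.66, SE 0.07, adjusted p = 2e-08). The exons of B4galt2, on the minus strand of chromosome 4 from 117541865 to 117556092, share 28.17% of their bases with Ccdc24 on the same strand, and the counting was without strand. Reads on shared bases may have been counted for no single gene, and the effect on the TPM of B4galt2 was not tested. Ccdc24 itself had 0.239 and 0.435 TPM in wild-type cortex and cerebellum and at most 23 counts in a library. In an exon, up to 46 bases overlap Slc6a9 on the other strand, a glycine transporter gene that was higher in cerebellum (log2 fold change 1.58, SE 0.14, adjusted p = 1.4e-06).

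B3galt2, a type 1 chain enzyme, had 35.7, 34.7, 38.4 and 35.4 TPM in CTX447, CTX448, CTX479 and CTX480 of the wild-type mice and 13.3, 12.9, 13.9 and 12.8 TPM in CBLM447, CBLM448, CBLM479 and CBLM480. The regions were far apart against a spread of at most 1.63 TPM (SD) in either. The level in cerebellum was 3.03-fold lower (log2 fold change -1.60, SE 0.06, adjusted p = 1.3e-09). The A391T values were 33.6, 32.9, 32.3 and 30.4 TPM in CTX445, CTX446, CTX461 and CTX462 and 7.24, 13.5, 14.2 and 12.6 TPM in CBLM445, CBLM446, CBLM461 and CBLM462, with CBLM445 the lowest. The log2 fold change was -1.56 (SE 0.15, adjusted p = 1.1e-05), and without CBLM445 it was -1.40 (SE 0.06, adjusted p = 1.1e-09). No other gene of the annotation overlaps the exons of B3galt2, on the plus strand of chromosome 1 from 145487794 to 145497536. With the names of the RPKM table B4galt2 and B3galt2 had log2 fold changes of -1.62 and -1.5 in the wild-type mice and of -1.64 and -1.66 in the A391T mice.

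The promoters of B4galt2 and B3galt2 are shown because these were the only members called in the wild-type comparison. Each runs from 250 bases before to 50 bases after the start of the gene, as RefSeq gives it in GRCm38.p6, a later build than that of the counts, and capitals mark the CG dinucleotides.
B3galt2, chr1:143640447-143640746, plus strand: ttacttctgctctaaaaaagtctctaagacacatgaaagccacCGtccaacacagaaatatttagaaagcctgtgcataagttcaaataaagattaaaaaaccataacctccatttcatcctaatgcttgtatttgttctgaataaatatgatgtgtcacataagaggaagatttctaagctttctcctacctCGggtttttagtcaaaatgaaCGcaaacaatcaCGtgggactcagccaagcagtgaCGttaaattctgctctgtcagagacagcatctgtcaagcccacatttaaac
B4galt2, chr4:117883427-117883726, minus strand: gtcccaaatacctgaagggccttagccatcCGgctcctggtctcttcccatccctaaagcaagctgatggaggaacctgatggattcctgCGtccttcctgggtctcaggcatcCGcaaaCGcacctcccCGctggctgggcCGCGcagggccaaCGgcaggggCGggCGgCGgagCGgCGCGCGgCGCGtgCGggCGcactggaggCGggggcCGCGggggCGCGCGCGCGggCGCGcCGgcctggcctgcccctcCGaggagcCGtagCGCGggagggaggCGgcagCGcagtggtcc
The 2 sequences differ in base content. The B3galt2 promoter had 37.7% G and C and 5 CG dinucleotides, and the B4galt2 promoter 73.7% and 36. Over 32851 promoters of the same length the medians were 52.7% and 7. The letters GGGCGG, searched on both strands, occurred at 2 places in the B4galt2 promoter and in none of the B3galt2 promoter, against 35.7% of all promoters with at least 1. TATAAA, searched likewise, was in neither, against 13.6% of all promoters. Entries were found for 9 of the 10 genes, 12 in all, of which 5 held GGGCGG and none held TATAAA.

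**Figure D2:**
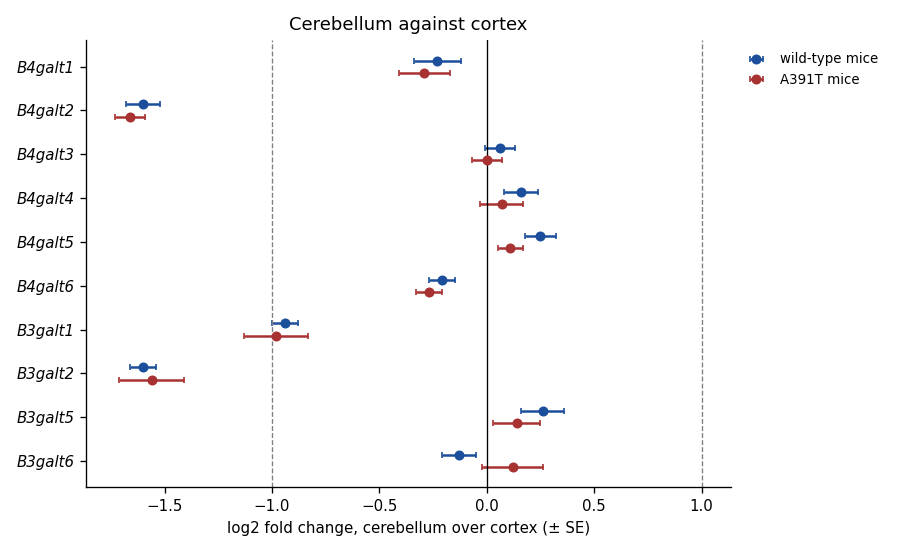
Log2 fold change of cerebellum over cortex for each gene in wild-type and in A391T mice, with bars of 1 SE and dashed lines at a 2-fold change. B4galt2 and B3galt2 lie between -1.56 and -1.66 in both genotypes, B3galt1 at -0.94 and -0.98, and the other genes within -0.29 and 0.26.

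The remaining β1,3 genes differed among themselves. B3galt1, also a type 1 chain enzyme, had 32.3, 32.8, 36.3 and 29.8 TPM in CTX447, CTX448, CTX479 and CTX480 of the wild-type mice and 18.3, 18.4, 19.8 and 19.6 TPM in CBLM447, CBLM448, CBLM479 and CBLM480. It was lower in cerebellum in every library, by slightly less than 2-fold (log2 fold change -0.94, SE 0.06, adjusted p = 2e-07). Its A391T values were 34.2, 32.4, 32.2 and 29.4 TPM in CTX445, CTX446, CTX461 and CTX462 and 10.8, 18.5, 20.2 and 20.7 TPM in CBLM445, CBLM446, CBLM461 and CBLM462, a log2 fold change of -0.98 (SE 0.15, adjusted p = 0.00029). This value lay close to the 2-fold limit and passed it with mouse as a block (-1.01, SE 0.16, adjusted p = 0.0018), without CTX462 (-1.02), CBLM461 (-1.04) or CBLM462 (-1.06), with the names of the RPKM table (-1.11) and in the 2 mice that both sources name alike (-1.26). It did not without CBLM445 (-0.83), CTX445, CTX446, CTX461 or CBLM446. It also did not with RLE size factors or DESeq2 (-0.99 in each), library totals (-0.85), no filter (-0.97) or all 16 libraries in one model (-0.97).

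B3galt5, which makes type 1 chains and acts in the globo and lacto series of glycolipids, was the β1,3 gene with the highest level in cerebellum. It had 24.9, 31.9, 31.6 and 22.3 TPM in CTX447, CTX448, CTX479 and CTX480 and 38.6, 35.5, 37.9 and 35.4 TPM in CBLM447, CBLM448, CBLM479 and CBLM480. The ranges did not overlap and the log2 fold change was 0.26 (SE 0.10, adjusted p = 0.04), which was not under 0.05 with RLE size factors or DESeq2, without CTX447 (0.22, adjusted p = 0.11), CTX480 (0.17, 0.071), CBLM447 (0.25, 0.077) or CBLM479 (0.24, 0.084), or in the 2 mice that both sources name alike (0.28, adjusted p = 0.21). The A391T cortex libraries had from 26.2 to 28 TPM, and the cerebellum libraries CBLM445, CBLM446, CBLM461 and CBLM462 had 23.9, 31.5, 39.2 and 34.1 TPM, with a log2 fold change of 0.14 (SE 0.11, adjusted p = 0.28). Without CBLM445 it was 0.24 (SE 0.07, adjusted p = 0.0077).

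B3galt6, the linker enzyme, had from 19.4 to 23.7 TPM in wild-type cortex and from 20.6 to 22.8 TPM in wild-type cerebellum. The regions overlapped (log2 fold change -0.13, SE 0.08, adjusted p = 0.17). In A391T cerebellum CBLM445 had 27.4 TPM and the other 3 from 19.9 to 20.4 TPM, against 16.9 to 20.5 TPM in A391T cortex (log2 fold change 0.12, SE 0.14, adjusted p = 0.51). Without CBLM445 the log2 fold change was -0.05 (SE 0.08, adjusted p = 0.55).

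Among the β1,4 genes other than B4galt2, differences between regions were small. B4galt5, the other lactosylceramide synthase, had 54.9, 54.5, 53.2 and 46.4 TPM in CTX447, CTX448, CTX479 and CTX480 of the wild-type mice and 63.1, 64.3, 74.5 and 73.9 TPM in CBLM447, CBLM448, CBLM479 and CBLM480, where all 4 values were higher. The log2 fold change was 0.25 (SE 0.07, adjusted p = 0.011), and in the A391T mice 0.11 (SE 0.06, adjusted p = 0.13), with 53 to 55.2 TPM in cortex and 55.3 to 66.4 TPM in cerebellum. Without CBLM445, which had the 55.3 TPM, the A391T value was 0.13 (SE 0.04, adjusted p = 0.018). B4galt6 moved the other way, by -0.21 (SE 0.06, adjusted p = 0.0091) in the wild-type mice and -0.27 (SE 0.06, adjusted p = 0.002) in the A391T mice, where it had 109 to 118 TPM in cortex and 98.6 to 104 TPM in cerebellum. TPM has a fixed total per library and TMM does not: with library totals in place of TMM the median log2 fold change of all genes rose by 0.12 in the wild-type mice and by 0.13 in the A391T mice. In the wild-type mice the change of B4galt6 was then -0.09 (adjusted p = 0.17). Under that scaling 7 of the 10 genes had an adjusted p under 0.05 in the wild-type mice, 4 higher and 3 lower, with B4galt3 and B4galt4 added and B4galt6 lost, against 69.8% of all genes, and of all genes past it 60.6% were higher in place of 51.2%. The corresponding A391T count was 5, against 66.7% of all genes, with B4galt5 (0.24, adjusted p = 0.0053) added as higher, and 60.9% in place of 50.2%. B4galt6 was also not under 0.05 in the 2 mice per genotype that both sources name alike, with adjusted p = 0.38 in wild type and 0.15 in A391T.

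B4galt3, which also acts on N-glycans, had 30.7 to 35.4 TPM in wild-type cortex and 35.7 to 40.5 TPM in wild-type cerebellum, ranges that did not overlap on the TPM scale, with a log2 fold change of 0.06 (SE 0.07, adjusted p = 0.43) after TMM scaling. The A391T log2 fold change was 0.0031 (SE 0.07, adjusted p = 0.97). Its exons share 14.47% of their bases with Ppox, a heme synthesis gene on the other strand that was higher in cerebellum (log2 fold change 0.73, SE 0.07, adjusted p = 4.1e-06). B4galt4, which favors sulfated N-acetylglucosamine as in keratan sulfate, had 22.2 to 25.8 TPM in wild-type cortex and 27.5 to 32.3 TPM in cerebellum (log2 fold change 0.16, SE 0.08, adjusted p = 0.12). In A391T cerebellum it had 20.2 TPM in CBLM445 and 27.4 to 31.4 TPM in the other 3, with a log2 fold change of 0.07 (SE 0.10, adjusted p = 0.56), and of 0.16 (SE 0.07, adjusted p = 0.04) without CBLM445. B4galt1 had 5.7 to 6.98 TPM in wild-type cortex and 5.54 to 6.96 TPM in cerebellum (log2 fold change -0.23, SE 0.11, adjusted p = 0.082). With the names of the RPKM table its log2 fold change in the wild-type mice was -0.35 (SE 0.12, adjusted p = 0.022), so that 7 of the 10 genes then had an adjusted p under 0.05, against 66.4% of all genes, and without CBLM480 it was -0.29 (adjusted p = 0.047). The A391T value was -0.29 (SE 0.12, adjusted p = 0.056), with -0.35 (adjusted p = 0.045) without CTX446, -0.40 (adjusted p = 0.0027) without CBLM445 and -0.28 (adjusted p = 0.044) with all 16 libraries in one model. DESeq2 also put it under 0.05 (-0.30).

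In the 4 A391T mice the same 2 genes, B4galt2 and B3galt2, passed both criteria, again lower in cerebellum. Of 16005 genes tested, 24.7% passed both, 14.9% lower. An adjusted p under 0.05 was reached by 4 of the 10 genes, all lower in cerebellum, against 62.8% of all genes, 31.3% lower and 31.6% higher. CBLM445 moved this count: without it, 8 of the 10 genes had an adjusted p under 0.05, of which 5 were lower and 3 higher in cerebellum, and so did 72.7% of the 16226 genes of that fit, 36.1% lower and 36.6% higher. The ranges of 5 genes did not overlap, against 61.8% of all genes. With mouse as a block, 3 genes passed both criteria, with B3galt1 added, against 24.6% of all genes in that fit.

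Within the summed level of the 6 β1,4 genes, the share of B4galt2 was smaller and that of B4galt5 larger in cerebellum than in cortex, given here without a test. This sum was 312 ± 20 TPM in wild-type cortex and 279.8 ± 13.6 TPM in wild-type cerebellum (SD, n = 4). B4galt2 made up 28.1% ± 1.54 of it in cortex and 11.5% ± 0.372 in cerebellum, B4galt5 16.7% ± 0.438 and 24.6% ± 1.14, and B4galt6 35% ± 0.913 and 37.5% ± 1.13 (SD, n = 4). The lactosylceramide synthases thus held the largest shares of the β1,4 sum in cerebellum. The 4 β1,3 genes summed to 118 ± 7.4 TPM in wild-type cortex and 90.5 ± 3.02 TPM in cerebellum (SD, n = 4), of which B3galt2 was 30.7% ± 1.43 and 14.6% ± 0.274, and B3galt5 23.4% ± 2.87 and 40.7% ± 0.596. In A391T cerebellum B3galt6 made up from 21.5% to 39.6% of the β1,3 sum, with the highest share in CBLM445.

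**Figure D3:**
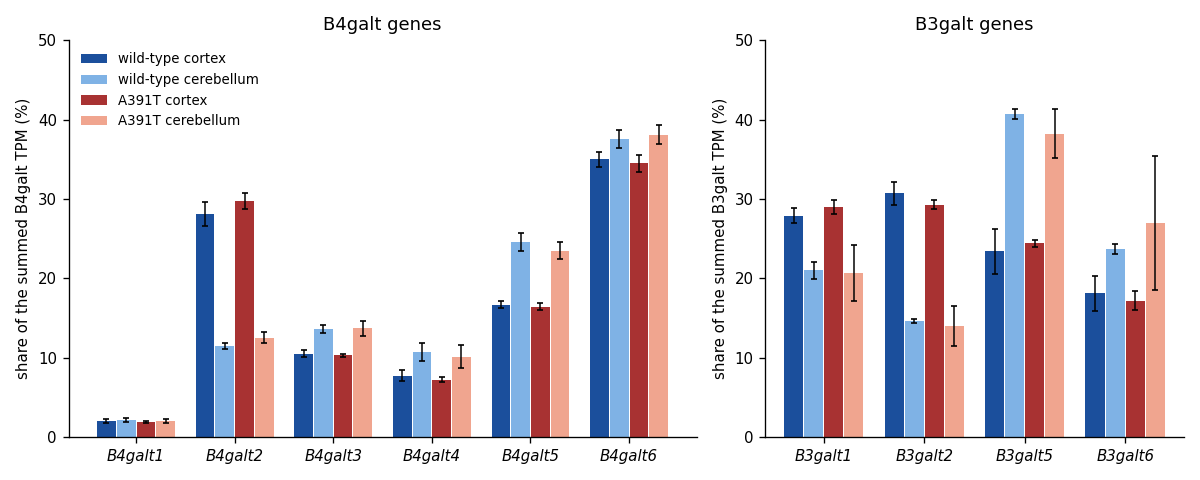
Share of each gene in the summed TPM of its family, in percent, as the mean of 4 libraries with bars of 1 SD, for the 6 β1,4 genes (left) and the 4 β1,3 genes (right). B4galt2 makes up 28.1% of the β1,4 sum in wild-type cortex and 11.5% in wild-type cerebellum, and B3galt5 23.4% and 40.7% of the β1,3 sum.

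Ratios of 3 pairs of related genes within a library, which do not depend on the scaling between libraries, were compared between the regions. The pairs were chosen with earlier results of these data known. B4galt2 and B3galt2 had already been called lower in these libraries, and B4galt6 and B4galt5 had moved opposite ways. Lower ratios thus follow from the fold changes above and are no separate support for them. All 3 ratios were lower in cerebellum in both genotypes, with no overlap. Of single genes, 65.9% in the wild-type mice and 61.8% in the A391T mice had no overlap between the regions either. The share over all pairs of genes was not computed. B4galt6 over B4galt5, the lactosylceramide synthases, was 2.02, 2.09, 2.05 and 2.19 in CTX447, CTX448, CTX479 and CTX480 and 1.59, 1.58, 1.55 and 1.39 in CBLM447, CBLM448, CBLM479 and CBLM480. Its A391T values were 1.98 to 2.2 and 1.51 to 1.78. B4galt2 over B4galt3 was 2.46 to 2.98 in wild-type cortex and 0.809 to 0.896 in wild-type cerebellum, and its A391T values were 2.69 to 3.06 and 0.88 to 0.94. B3galt2 over B3galt1 was 1.06 to 1.19 and 0.651 to 0.727 in the wild-type mice and 0.982 to 1.03 and 0.611 to 0.728 in the A391T mice. Each of the 6 exact two-sided permutation tests of 4 libraries against 4 gave p = 0.0286 (adjusted over the 6 tests, 0.0286), which is as low as this unpaired test can go. With the libraries paired by mouse, as both regions came from the same mice, all 3 ratios were lower in cerebellum in 4 of 4 mice of each genotype, and the exact permutation p within mice was 0.125 in each of the 6 tests, the smallest that this test can give with 4 pairs. The levels of these ratios rest on the gene lengths, and the fold between regions does not: on the log2 scale it was -0.46 for B4galt6 over B4galt5, -1.66 for B4galt2 over B4galt3 and -0.66 for B3galt2 over B3galt1 in the wild-type mice, and -0.37, -1.66 and -0.58 in the A391T mice.

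**Figure D4:**
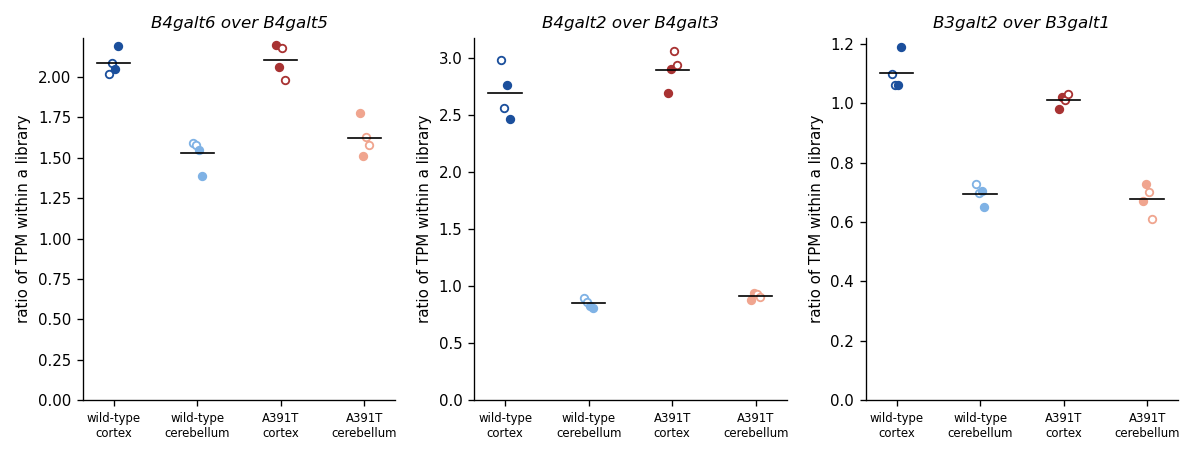
Ratios of TPM within each library for 3 pairs of related genes, with 1 point per library, black lines at group means and open points for the 4 mice that are named differently in the 2 deposits. B4galt2 over B4galt3 is at least 2.46 in every cortex library and at most 0.94 in every cerebellum library.

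To ask whether the A391T mutation changes these genes, the genotypes were compared within each region. None of the 10 genes passed both criteria or had an adjusted p under 0.05 in cortex, where 0.00632% of 15815 genes passed both and 0.0126% the adjusted p alone, or in cerebellum, where 0% of 15668 genes did. DESeq2 gave 0 of 10 genes in both regions as well, against 0.0126% of all genes past both criteria and 0.0885% past the adjusted p in cortex, and 0.0574% and 0.191% in cerebellum. The log2 fold changes of A391T over wild type ran from -0.18 to 0.13 in cortex, with SEs from 0.05 to 0.10, and from -0.15 to 0.10 in cerebellum, with SEs from 0.06 to 0.16. At an unadjusted p under 0.05 there was 1 of the 10 genes in cortex, against 4.73% of all genes, and 0 in cerebellum, against 8.55%. That 1 was B3galt2, whose A391T cortex values of 30.4 to 33.6 TPM lay below the wild-type values of 34.7 to 38.4 TPM (log2 fold change -0.18, SE 0.06, unadjusted p = 0.01, adjusted p = 0.97). It was the only gene of the 10 with ranges apart, against 3.24% of all genes in cortex. With the names of the RPKM table its log2 fold change in cortex was -0.0047 (adjusted p = 0.99). In cerebellum no gene of the 10 had ranges apart, against 7.83% of all genes. With the table's names no gene of the 10 had an adjusted p under 0.05 in either region.

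**Figure D5:**
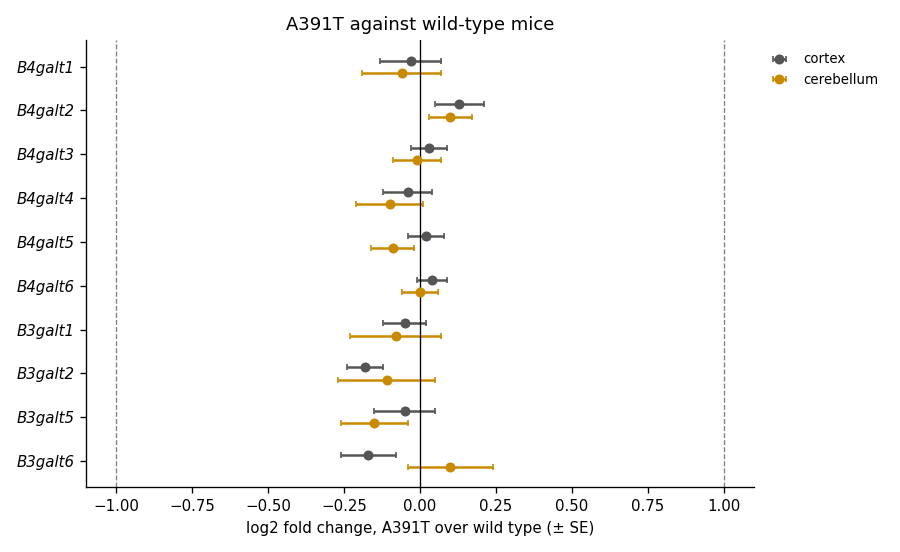
Log2 fold change of A391T over wild type for each gene in cortex and in cerebellum, with bars of 1 SE and dashed lines at a 2-fold change. All values lie within -0.18 and 0.13, and none has an adjusted p under 0.05.

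Whether the region difference itself differs by genotype was tested as an interaction over all 16 libraries. None of the 10 genes had an adjusted p under 0.05, as did 0% of 16589 genes, and none had an unadjusted p under 0.05, against 4.85% of all genes. DESeq2 called none of the 10 either, against 0.00603% of all genes with an adjusted p under 0.05. The values ran from -0.13 for B4galt5 (SE 0.09) to 0.27 for B3galt6 (SE 0.17, adjusted p = 0.77). Without CBLM445 the value of B3galt6 was 0.09 (SE 0.11).

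Other genes of galactose addition were read from 8 lists with 52 genes in all, some in 2 lists, of which 50 were tested in the wild-type mice. Between the regions 8 of the 50 passed both criteria, 2 higher and 6 lower in cerebellum, beside 24.7% of all genes, and 32 had an adjusted p under 0.05, 13 higher and 19 lower, beside 67.8% of all genes, 34.7% higher and 33.1% lower. The median log2 fold change was -0.15 over the 50 and 0.02 over all genes. The higher ones were B3gnt5, which extends lactosylceramide into the lacto series (log2 fold change 4.39, SE 0.11, adjusted p = 4.6e-11), at 0.67 ± 0.0223 TPM in wild-type cortex and 15.7 ± 1.31 TPM in wild-type cerebellum (SD, n = 4), and A3galt2, which adds an α1,3-linked galactose to glycolipids (adjusted p = 1.6e-07), with 0.148 and 3.2 TPM and from 1 to 79 counts in a library. Both act on lactosylceramide.

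Of the 8 sialyltransferases tested, the enzymes that cap galactose, all had an adjusted p under 0.05, 4 higher and 4 lower, beside 67.8% of all genes, and 2 were called, both lower, beside 24.7% of all genes. St6gal2 fell from 30.6 ± 2.28 TPM in cortex to 1.88 ± 0.553 TPM in cerebellum (SD, n = 4) and St3gal1 from 19.6 ± 3.17 to 6.63 ± 0.892 TPM. The branching enzyme gene Mgat4c (-1.49), the collagen galactosyltransferase gene Glt25d2 (-1.26), Ggta1, which makes the α-Gal epitope (-1.12), and the xylosyltransferase gene Xylt1, which starts the glycosaminoglycan linker (-1.03, SE 0.29), were also lower. Ggta1 had 2.47 TPM in wild-type cortex and 1.27 TPM in wild-type cerebellum, with 41 to 153 counts in a library. The study reports this transcript as not detected in brain. No gene for the supply of UDP-galactose, of 7 tested, and no galactosidase gene, of 5 tested, was called, beside 24.7% of all genes. An adjusted p under 0.05 was reached by 5 of the former, 2 higher and 3 lower, and by 3 of the latter, 2 higher and 1 lower, beside 67.8% of all genes. Among A391T mice 10 of 50 genes passed both criteria, 4 higher and 6 lower, beside 24.7% of all genes and 14.9% lower, with the mutarotase gene Galm (1.29, against 0.93 in wild type) and the galactosidase-like gene Glb1l2 (1.63, against 0.93) added, 2 genes named after their values were seen. In the genotype comparisons and the interaction none of the 49 or 50 genes tested had an adjusted p under 0.05.

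The genes whose pattern over the 16 libraries was most like that of B4galt2, by Pearson's r of log2(CPM + 1) over 16217 genes, were Rapgefl1 (0.998), Myom3 (0.997) and Rasal1 (0.997). Those most like B3galt2 were Ppme1 (0.995), Myadm (0.995) and Olfm2 (0.993). The libraries fall into 2 regions, and 2541 and 2401 genes had an r over 0.9 with B4galt2 and B3galt2, so that a high r mostly says that a gene was lower in cerebellum.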

How the data were processed

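Counts per gene were deposited by the authors for each of the 16 libraries, whole numbers without normalization. PolyA-selected directional libraries were read in runs of 50 bases, mapped to mm9 with STAR and counted with HTSeq on Ensembl genes, without regard to strand. Of all entries, 21.4% to 27.1% lay on no single gene and stayed out of totals and tests. The deposited RPKM table served for gene names, gene lengths and the check of library names. It holds the values of all 16 libraries, and each column was matched to the count file it is proportional to.

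Counts were tested with edgeR 4.0.16 and limma 3.58.1 in R 4.3.3, after filterByExpr and TMM, with Benjamini-Hochberg adjustment across every tested gene and only the groups compared in the fit. Calls needed an adjusted p under 0.05 and a change of at least 2-fold, as in the study. TPM was computed from counts and the table's lengths. Ratios used exact permutation tests in scipy 1.17.1. On simulated counts with 200 changed genes, 197 were called, with 0 false calls. These values were the same for the wild-type region comparison (16040 genes) and the genotype comparison in cortex (15815 genes). In the wild-type libraries themselves, 67.8% of genes had an adjusted p under 0.05 between the regions. Recovery and false calls where that many genes differ were not tested. The comparisons with A391T cerebellum, which hold CBLM445, were not simulated. Alternatives were RLE size factors, library totals, DESeq2 1.42.0, no filter, all 16 libraries in one model, the table's library names, the mice named alike, mouse as a block, each library left out, and, added after the data were seen, exon lengths of the annotation and ratios paired by mouse.

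The genes, lists and ratio pairs were chosen with earlier results of these data known. Genes named outside the 10 were those of the pathway lists past both criteria in the wild-type region comparison or with an adjusted p under 0.05 between genotypes (none), and the 3 most alike per called gene. Galm, Glb1l2 and the genes whose exons overlap a member were named after their values were seen. For 3 listed names with 2 entries, the entry with more counts was used. The study states that both regions came from the same mice, so mouse pairs the libraries. Deviations from group means correlated from -0.099 to 0.119 between regions of one mouse (median -0.0545, 8 pairs) and from -0.167 to 0.152 between mice (median 0.0145, 24 pairs). Nothing else in the labels ties libraries to a batch. Coordinates and coding sequences are from Ensembl on NCBIM37, promoters from RefSeq on GRCm38.p6.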

Additional observations from a re-analysis of the deposited data

Results flagged for a closer look

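Each of the 10 genes was checked for a single library far from the other 3 of its group, in 40 groups of values, of which chance alone would pick about 1 in 20. B3galt6 had 27.4 TPM in A391T cerebellum library CBLM445, against 19.9 to 20.4 TPM in the other 3 libraries. In the same library B3galt1, B3galt2, B3galt5, B4galt4, B4galt5 and B4galt6 had the lowest values of their group and B4galt1 and B4galt3 the highest, the granule cell genes summed to 2356 TPM against a group median of 2895 TPM, and the blood genes to 593 TPM against a median of 495 TPM. The endothelium genes summed to 292 TPM there against a median of 215 TPM, and the striatum genes to 311 TPM against 265 TPM. The part of these in the B3galt6 value was not tested. B4galt6 had 115 TPM in wild-type cerebellum library CBLM479, against 100.1 to 103 TPM in the other 3. The choroid plexus genes summed to 41.6 TPM in that library and to at least 5311 TPM in the other 3, and the part of this in the B4galt6 value was not tested.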

How the results depend on the processing

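B4galt2 and B3galt2 were called in both region comparisons under all 17 alternatives run for each, with log2 fold changes from -1.67 to -1.47 and from -1.64 to -1.48 in the wild-type mice and from -1.69 to -1.53 and from -1.76 to -1.40 in the A391T mice. An adjusted p under 0.05 alone, without the fold criterion, gave 6 genes in the wild-type mice and 4 in the A391T mice. Over those alternatives the number of genes with an adjusted p under 0.05 ran from 4 to 7 in the wild-type mice and from 3 to 8 in the A391T mice. Mouse as a replicate block added the call of B3galt1 in the A391T mice (-1.01) and changed no other call of a gene. Pairing by mouse, chosen after seeing the data, left the mean log2 differences of the 3 ratios as they were, at -0.46, -1.66 and -0.66 in wild type and -0.37, -1.66 and -0.58 in A391T, with an exact permutation p of 0.125 for each, the lowest this test can give with 4 pairs. B3galt1 was also called in the A391T mice with the table's names (-1.11, and -1.13 with the block), in the mice named alike (-1.26), and without CTX462 (-1.02), CBLM461 (-1.04) or CBLM462 (-1.06). Under the remaining alternatives it was not called there. With TPM rescaled by TMM factors the highest level, that of B4galt6, moved to 118 TPM in A391T cortex and 97.1 TPM in A391T cerebellum, by construction of the scale. Some values also changed sign, none of them called, and the cause was not tested. For A391T cerebellum over cortex, B3galt5 was -0.07 in the mice named alike, and B4galt3 was -0.01 with RLE, with DESeq2 and with the block and the table's names together, -0.0045 with the table's names and -0.00059 with the block. For A391T over wild type in cortex the table's names gave 0.04 for B3galt1, 0.07 for B3galt5 and 0.01 for B4galt4, and the mice named alike 0.01 for B3galt5. In cerebellum the table's names gave 0.08 for B4galt1, 0.02 for B4galt3 and 0.07 for B4galt4, and the mice named alike 0.02 for B4galt1 and 0.01 for B4galt3. For the interaction, the table's names, the mice named alike and the block with the table's names gave -0.14, -0.11 and -0.17 for B3galt2 and 0.19, 0.14 and 0.19 for B4galt1, and the first and last gave 0.04 and 0.03 for B4galt4. With 1 library left out at a time, signs turned within these ranges. For A391T cerebellum over cortex they were -0.05 to 0.18 for B3galt6 and -0.05 to 0.04 for B4galt3. For genotype in cortex they were -0.13 to 0.01 for B3galt5, -0.07 to 0.03 for B4galt1, -0.01 to 0.06 for B4galt3 and -0.02 to 0.06 for B4galt5. In cerebellum they were -0.15 to 0.07 for B3galt1, -0.21 to 0.04 for B3galt2, -0.08 to 0.16 for B3galt6, -0.18 to 0.0043 for B4galt1, -0.07 to 0.03 for B4galt3 and -0.03 to 0.03 for B4galt6. For the interaction they were -0.11 to 0.12 for B3galt1, -0.03 to 0.21 for B3galt2, -0.15 to 0.02 for B4galt1, -0.11 to 0.02 for B4galt2 and -0.14 to 0.02 for B4galt4. Depth limits B4galt1 most, with as few as 136 counts in a library.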
